A study of Mus musculus with 2 samples.

Results

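The genes described here encode 7 chains of the receptors for interleukins 2, 4, 7, 15 and 21: the shared gamma chain Il2rg, the beta chain Il2rb, and the private chains Il2ra, Il15ra, Il7r, Il4ra and Il21r. They were chosen by symbol, and all 7 were found among the 32285 features of both libraries. RNA was counted in single YFP+ thymus cells of mice whose Cre follows Tbx21, which encodes T-bet, and marks cells by a Rosa26 YFP reporter. The control library came from Tbx21Cre Rosa26-YFP+ mice, and the cKO library from Tbx21Cre Ets1F/F Rosa26-YFP+ mice, whose floxed gene encodes an ETS family transcription factor. Both genotypes thus carry the Cre and the reporter, and both libraries are labelled thymic iNKT1, that is, T-bet+ invariant natural killer T (iNKT) cells. Each genotype has 1 library that pools 2 mice with no tag for either, and differences therefore have no replicate check, no test and no p-value.

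Cytokines of this family signal through paired chains. Il2rg pairs with Il7r for interleukin 7, with Il4ra for interleukin 4, with Il21r for interleukin 21, and with Il2rb for interleukins 2 and 15, for which Il2ra and Il15ra raise the affinity. The chains carry Jak1 and Jak3 kinases, which act on STAT proteins. In the thymus, interleukin 7 is known for the survival and growth of early and mature T cells, and interleukin 15 for natural killer (NK) cells and T-bet+ iNKT cells, which are high in Il2rb. Regulatory T cells are known for Il2ra.

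A cell was kept if it had 500 or more genes and no more than 10% mitochondrial UMIs (unique molecular identifiers, 1 per captured RNA molecule). The control library of 35210431 UMIs kept 7395 cells (median 2666 UMIs), and the cKO library of 39979742 UMIs kept 5903 (median 5533). The 6 classes compared were gates on UMIs and overlap one another. Trav11+ T cells (a Trav11 and a CD3 UMI) numbered 177 in control and 149 in cKO, CD3+ Cd8b1-negative T cells 6236 and 2976, and CD8 T cells (a CD3 and a Cd8b1 UMI, no Rag1) 869 and 569. Cd4+ Ctla4+ T cells numbered 48 and 128, NK cells (an Ncr1 and no CD3 UMI) 105 and 53, and DP cells (a Rag1 UMI, double-positive thymocytes by label) 58 and 57. Trav11 has near-identical copies in the annotation, so its counts, and with them the first gate, are uncertain. A level is given as CPM, the gene's UMIs summed over the cells of a class and scaled to 1000000 UMIs of those cells, with an exact Poisson 95% interval, and a ratio is cKO CPM over control CPM with an exact conditional binomial 95% interval. These intervals cover counting error only, not the spread between mice. A gene meets the size rule when the ratio is at least 1.5 in either direction, the higher library reaches 20 CPM, and the interval of the ratio excludes 1.

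Ets1 was lower in cKO in 5 of the 6 classes. It stood at 524 and 168 CPM in CD3+ Cd8b1-negative T cells of control and cKO, 547 and 170 in Trav11+ T, 364 and 154 in CD8 T, 568 and 265 in Cd4+ Ctla4+ T, and 375 and 80.1 in NK cells. In DP cells it was not lower, at 489 and 658 CPM, so differences there are between the libraries as labelled, with no lower Ets1 measured. The libraries shared 29 barcodes, of which 14 were kept. Transcripts of gut epithelium were found in the cKO library: 9 of 10 listed gut genes met the size rule as higher in CD3+ Cd8b1-negative T cells (summed level 10.1 and 900 CPM). In addition, 1567 kept cKO barcodes without CD3, and 0 control barcodes, held at least 20 UMIs of gut genes making up at least 1% of their total, called gut-gene barcodes here. Listed B cell genes rose past the size rule in the same T class for 5 of 8 (662 and 1408 CPM), and listed erythroid genes were lower for 4 of 4 (219 and 1.46 CPM). The part of these transcripts in the levels below was not tested, except where levels without such cells are given. The median gene at 20 CPM had a log2 ratio of 0.16 in Trav11+ T and in CD3+ Cd8b1-negative T cells, 0.27 in CD8 T, 0.04 in Cd4+ Ctla4+ T, -0.04 in NK and 0.15 in DP cells, and ratios should be read against this shift.

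Across the 6 classes the chains did not move together. Il7r was the chain most often lower in cKO, below control in each class and past the size rule in 5 of the 6. Il2rb and Il2rg had ratios between 1.08 and 1.23 in Trav11+ and CD3+ Cd8b1-negative T cells, and Il2rg met the size rule in no class. Il2ra, Il15ra and Il21r each met it as higher in 1 class, Il2ra and Il21r in Cd4+ Ctla4+ T cells and Il15ra in CD8 T cells, and Il4ra met it in none.

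**Figure D1:**
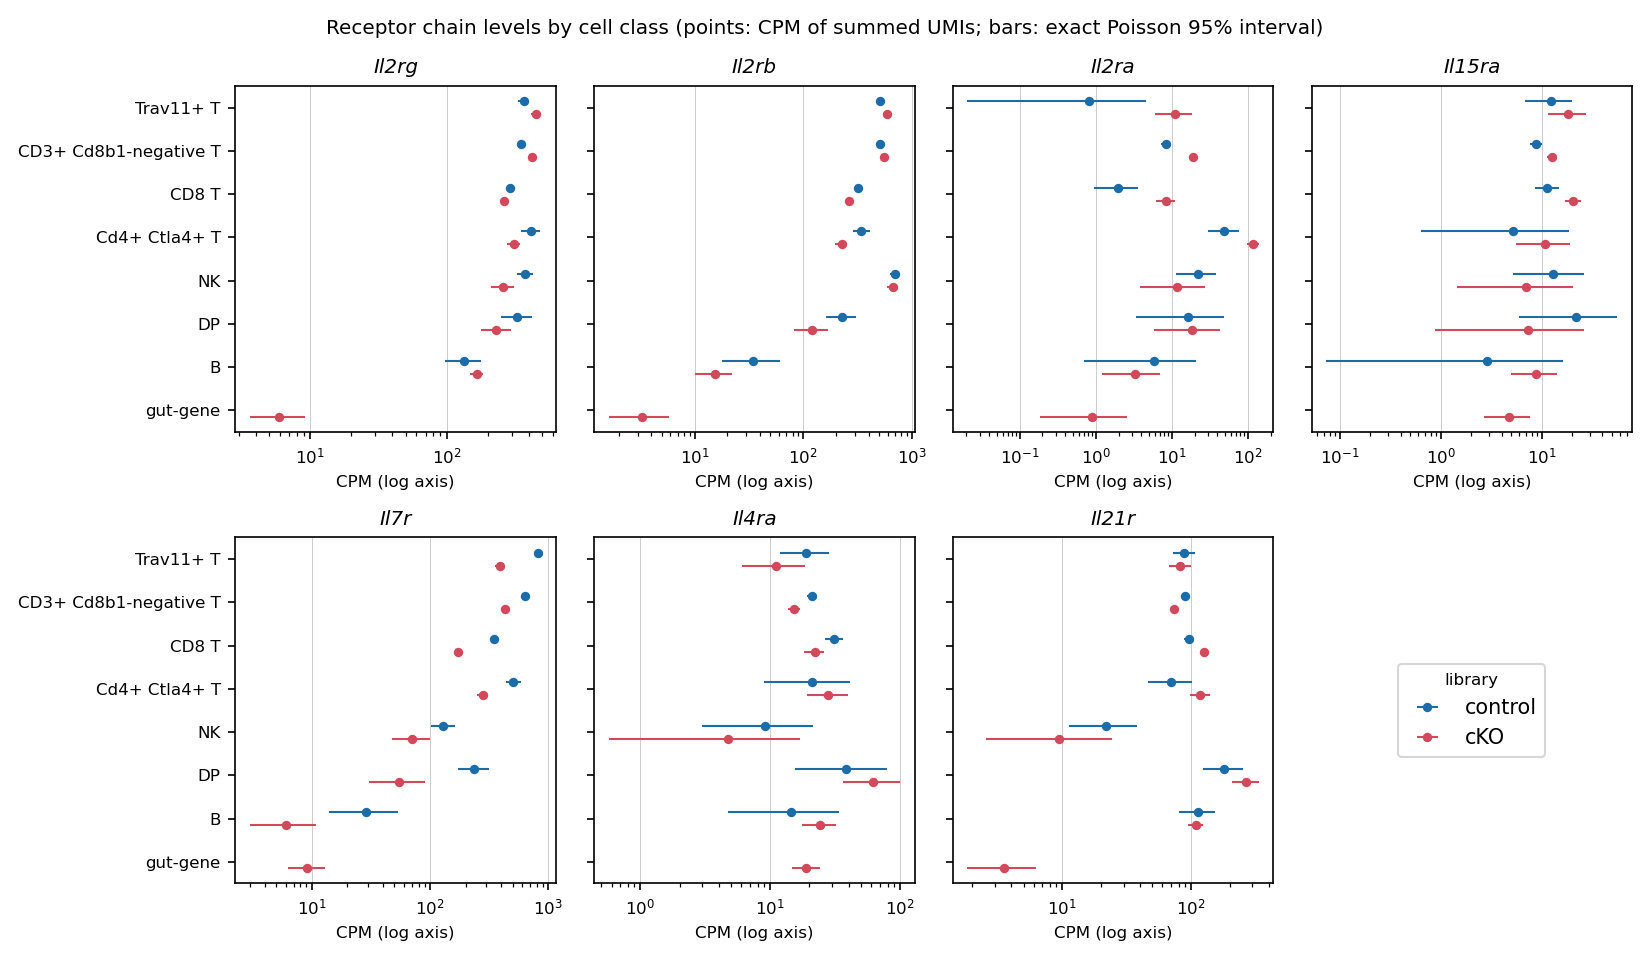
CPM (log axis, a different range for each gene) of the 7 receptor chains in the 6 gated classes, B cells and gut-gene barcodes, control in blue and cKO in red, with exact Poisson 95% intervals and 1 library per genotype. Il7r lies lower in cKO in each of the 6 gated classes, while Il2rb of the Trav11+ and CD3+ Cd8b1-negative T classes lies slightly higher; gut-gene barcodes have no control point because no control barcode was in that class.

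Counted by class against all genes at 20 CPM, the numbers were small. In Trav11+ T cells 4 of the 7 chains reached 20 CPM, 0 were higher and 1, Il7r, lower past the size rule, where 16.1% of all genes were higher and 7.66% lower (23.8% in all). In CD3+ Cd8b1-negative T cells 5 chains reached 20 CPM and 0 met the rule in either direction, where 12.7% of genes were higher and 5.08% lower (17.8% in all). In CD8 T cells 6 reached 20 CPM, and Il15ra was higher and Il7r lower, where 22.9% of genes were higher and 6.65% lower (29.6% in all). In Cd4+ Ctla4+ T cells, again with 6 chains at 20 CPM, Il2ra and Il21r were higher and Il2rb and Il7r lower, where 9.61% of genes were higher and 8.19% lower (17.8% in all). In NK cells 5 reached 20 CPM, 0 were higher and Il7r was lower, where 7.13% of genes were higher and 9.78% lower (16.9% in all). In DP cells 6 reached 20 CPM, 0 were higher and Il2rb and Il7r were lower, where 6.91% of genes were higher and 4.24% lower (11.2% in all). Over all kept cells, gut-gene barcodes included, 0 chains were higher and Il7r alone was lower (575 and 309 CPM, a ratio of 0.537), where 16.3% of genes were higher and 5.33% lower (21.6% in all). The median log2 ratio of the chains at 20 CPM was 0.05 in Trav11+ T, -0.30 in CD3+ Cd8b1-negative T, -0.21 in CD8 T, -0.03 in Cd4+ Ctla4+ T, -0.82 in NK and -0.71 in DP cells, beside the medians of all genes given above.

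**Figure D2:**
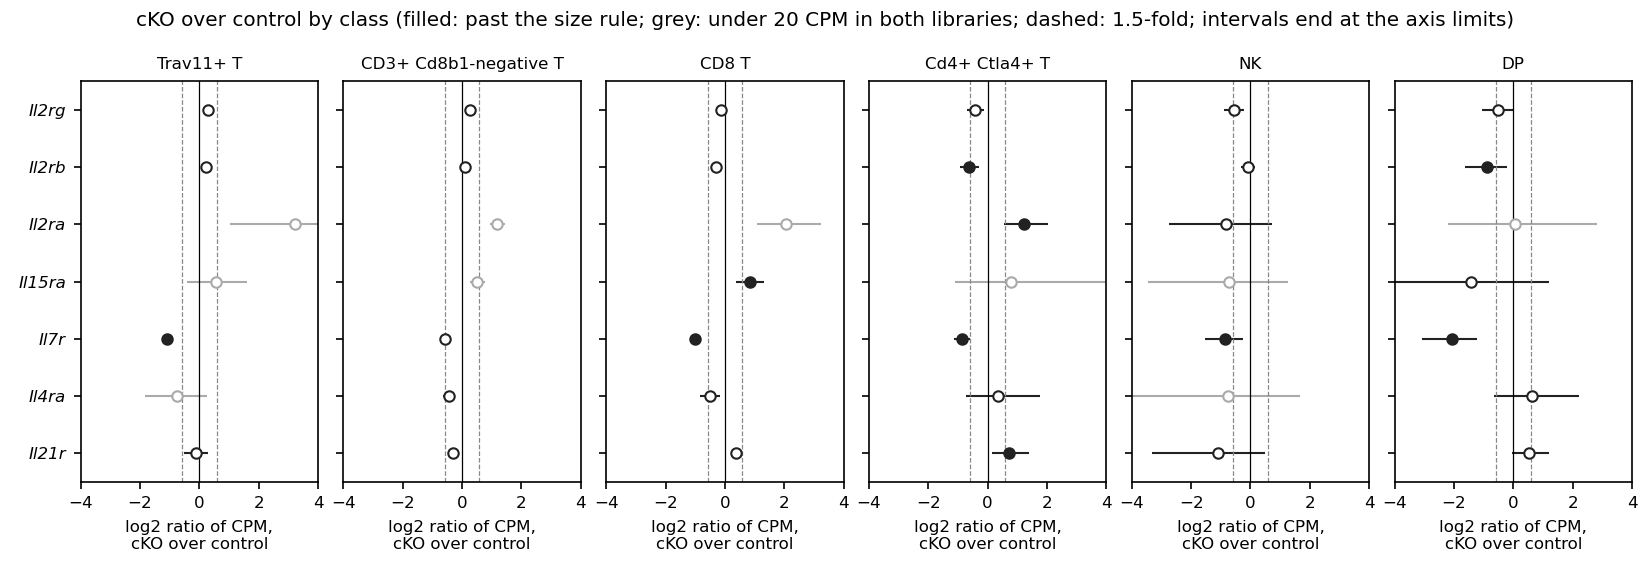
log2 ratio of CPM, cKO over control, for each chain in each class with its exact conditional binomial 95% interval; filled points meet the size rule, grey points are under 20 CPM in both libraries, and dashed lines mark 1.5-fold. Il7r is the 1 chain whose point is left of 0 in each panel, and in CD3+ Cd8b1-negative T cells it lies just inside the 1.5-fold line at a ratio of 0.678.

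Because the targeted gene encodes an ETS factor, the start regions of the chain with the most classes past the size rule, Il7r, and of the shared chain that met it in none, Il2rg, are shown with the ETS core letters they hold. Both are RefSeq windows on GRCm38.p6, 250 bases before to 50 after the RefSeq start, 5' to 3' on the gene's own minus strand: chr15:9529827-9530126 for Il7r and chrX:101268206-101268505 for Il2rg. Capitals mark the letters CCGGAA or AGGAAG (ETS cores) and TGTGGT (a RUNX core) found on either strand, the reverse strand reading CTTCCT for AGGAAG.
Il7r: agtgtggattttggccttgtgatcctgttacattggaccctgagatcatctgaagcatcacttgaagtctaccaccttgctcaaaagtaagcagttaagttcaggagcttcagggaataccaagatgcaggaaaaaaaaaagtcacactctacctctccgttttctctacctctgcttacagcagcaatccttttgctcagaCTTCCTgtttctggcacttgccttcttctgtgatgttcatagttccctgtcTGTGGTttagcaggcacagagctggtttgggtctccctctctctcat
Il2rg: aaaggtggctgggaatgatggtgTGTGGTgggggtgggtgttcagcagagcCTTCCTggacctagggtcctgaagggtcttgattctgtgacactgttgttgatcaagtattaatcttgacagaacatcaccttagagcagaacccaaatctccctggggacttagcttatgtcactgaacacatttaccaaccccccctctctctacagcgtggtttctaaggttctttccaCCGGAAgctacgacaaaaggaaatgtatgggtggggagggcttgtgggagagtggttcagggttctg
Counted from the start base as 0, Il7r holds CTTCCT at -48 and TGTGGT at 3. Il2rg holds CCGGAA at -17, CTTCCT at -199 and TGTGGT at -227, and no 2 of these matches overlap. Of the 32851 promoter windows of the same length in the table, 14.9% hold CCGGAA, 35.4% AGGAAG, 45.2% either ETS core and 16.8% TGTGGT, so such matches are common. Among the other chains in the table, the Il2ra window holds an AGGAAG core on the reverse strand at -34 and that of Il4ra one on its own strand at -7. The first of the 2 Il15ra windows holds CCGGAA at -104 and an AGGAAG core on the reverse strand at -213. The Il21r window holds no ETS core of either spelling, and the RUNX letters on the reverse strand at -33. The T-box letters GGTGTGA, held by 3.98% of windows, were in none of the chains' windows in the table. Il2rb had no window there, so its start region was not searched for any of these letters. A match describes letters only, and both windows shown hold CTTCCT. RefSeq and GENCODE place the Il7r start at different bases, and positions here follow RefSeq. The GENCODE gene, on the minus strand, starts at 9530176. The whole Il7r window shown therefore lies downstream of the GENCODE start, inside that gene, and is a start region by RefSeq only.

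Il2rg, the chain shared by all these receptors (ENSMUSG00000031304, chromosome X, 101264378 to 101268255 on the minus strand of GRCm38), was found in every gated class. Its control levels ranged from 289 CPM in CD8 T cells (275 to 305) to 414 CPM in Cd4+ Ctla4+ T cells (352 to 484), a narrow span beside that of the other chains. In Trav11+ T cells it stood at 369 CPM (335 to 404) in control and 455 (418 to 493) in cKO, a ratio of 1.23 (1.09 to 1.40). The CD3+ Cd8b1-negative T cells held 353 CPM (346 to 360) and 420 (411 to 429), a ratio of 1.19 (1.16 to 1.22). These ratios are above 1 by a little more than the median gene of the class. In the 4 other classes the ratio was below 1, at 0.915 (0.851 to 0.984) in CD8 T, 0.746 (0.617 to 0.907) in Cd4+ Ctla4+ T, 0.686 (0.537 to 0.867) in NK and 0.698 (0.482 to 1.01) in DP cells. NK cells stood at 375 and 257 CPM, from 205 and 109 UMIs, and DP cells at 330 and 230 CPM, from 60 and 63 UMIs. The DP ratio met the size rule among cells with a Cd8b1 UMI as well (0.611, 0.402 to 0.937) and without cells of B or gut markers (0.662, 0.446 to 0.981). B cells (a Cd79a UMI, no CD3), which are known to use the chain as well, held 133 and 165 CPM, and the gut-gene barcodes 5.92 CPM, far below the lymphoid classes.

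Il2rb, the signalling chain for interleukins 2 and 15 (ENSMUSG00000068227, chromosome 15, 78479256 to 78495271, minus strand), was highest in NK cells in both libraries, at 703 CPM (635 to 777) in control and 667 (591 to 749) in cKO, and the ratio there was 0.949 (0.811 to 1.11). In control its order of levels went on with Trav11+ T and CD3+ Cd8b1-negative T cells, which did not differ beyond their intervals, then Cd4+ Ctla4+ T, CD8 T and DP cells, whose neighbours also overlapped, and last B cells. In cKO the intervals of NK and Trav11+ T cells overlapped, and so did those of Trav11+ and CD3+ Cd8b1-negative T cells. The order of the classes therefore changed little, except that CD8 T and Cd4+ Ctla4+ T cells traded places with overlapping intervals. NK cells here are a gate that also held UMIs of T cell genes other than CD3 (listed genes summed to 1523 and 848 CPM).

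In the Trav11+ and CD3+ Cd8b1-negative T classes, each taken whole, Il2rb differed little between the genotypes. In Trav11+ T cells it stood at 513 CPM (474 to 555) in control and 593 (551 to 637) in cKO, a ratio of 1.16 (1.04 to 1.29). The wider CD3+ Cd8b1-negative class stood at 509 CPM (501 to 518) and 550 (540 to 560), a ratio of 1.08 (1.05 to 1.11), whose log2 value of 0.11 is below the class median of 0.16. The direction in this class turned under a median-ratio scaling (-0.03) and when mitochondrial and ribosomal protein genes were left out of the total (-0.06). Tbx21 itself, the gene that marks the sort and that T-bet+ cells share with high Il2rb, stood at 86.8 and 129 CPM in the same cells. After each cell was thinned to 1500 UMIs, 49.1% of control cells (2127 of 4329) and 51.6% of cKO cells (1480 of 2867) held an Il2rb UMI, where the unthinned shares were 64.8% and 85.3% at median depths of 2582.5 and 6744 UMIs. The share of thinned B cells with an Il2rb UMI was 8.57% in control and 1.37% in cKO, and that of gut-gene barcodes 1.01%.

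In the other classes Il2rb was lower in cKO. CD8 T cells stood at 321 CPM (305 to 337) and 261 (248 to 275), a ratio of 0.815 (0.759 to 0.874), short of the size rule. Cd4+ Ctla4+ T cells stood at 344 CPM (288 to 408) and 225 (198 to 255), a ratio of 0.654 (0.528 to 0.815). DP cells stood at 225 CPM (162 to 306) and 121 (83.1 to 169), a ratio of 0.537 (0.328 to 0.868), from 41 and 33 UMIs, of which 1 cKO cell held 11. The last 2 ratios met the size rule. In these DP cells 4 of 8 listed NK genes were lower in cKO as well (summed level 1149 and 135 CPM) and 5 of 8 listed DP genes higher (4625 and 7741 CPM). Listed B cell genes were higher for 6 of 8 (423 and 2135 CPM), among them Cd74 at 176 and 1207 CPM, and without cells of B or gut markers, 55 and 51 cells, the ratios were 0.566 (0.332 to 0.951) for Il2rb and 0.273 (0.134 to 0.505) for Il7r. In addition, 19 of the 58 control but 2 of the 57 cKO cells also fell in the CD3+ Cd8b1-negative class, so composition and level cannot be told apart there. With a Cd8b1 UMI asked for as well, chosen after seeing the data, Il2rb stood at 185 and 79.7 CPM, a ratio of 0.434 (0.226 to 0.816).

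Il2ra, the affinity chain for interleukin 2 (ENSMUSG00000026770, chromosome 2, 11642807 to 11693193, plus strand), was at or under 22.0 CPM outside Cd4+ Ctla4+ T cells. There it stood at 49.5 CPM (29.8 to 77.3) in control, from 19 UMIs in 9 of 48 cells, and 118 (98.2 to 139) in cKO, from 130 UMIs in 33 of 128 cells, a ratio of 2.32 (1.46 to 4.07). This control level rests on few cells: 5 of them held 78.9% of the UMIs. After thinning, the share of cells with a UMI was 13.3% in both libraries. The regulatory T cell genes of the gate moved the same way: Foxp3, their lineage factor, stood at 26.0 and 141 CPM, and Tnfrsf4 at 143 and 579 CPM, with 4 of 6 listed CD4 and regulatory T genes higher (summed level 1039 and 2294 CPM). Of 8 listed NK genes 1 was higher and 3 lower in this gate. Klrb1c, an NK receptor gene, stood at 72.9 CPM in control and was not found among the cKO UMIs. It was lower in CD3+ Cd8b1-negative T cells as well, at 172 and 23.4 CPM. Gzma went the other way in the gate, at 33.9 and 325 CPM. Whether the 2 gates hold different mixtures, and the part of this in the Il2ra ratio, was not tested.

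In the larger T classes Il2ra stayed under 20 CPM in both libraries but its intervals lay apart. In CD3+ Cd8b1-negative T cells it stood at 8.31 CPM (7.26 to 9.48) and 19.0 (17.2 to 20.9), a ratio of 2.28 (1.94 to 2.70), from 222 and 416 UMIs in 160 and 246 cells. Cells with a Foxp3, Ctla4 or Cd4 UMI made up 12.5% and 13.6% of the class and held 46.8% and 40.1% of these UMIs. Without those cells, a choice made after seeing the data, the levels were 5.47 and 13.3 CPM and the ratio 2.43 (1.95 to 3.06). The difference was thus also present among cells without such a UMI. Foxp3 stood at only 1.91 and 10.7 CPM in the class and Ctla4 at 9.70 and 24.0 CPM, so a cell may lack these UMIs by depth. Of 6 listed CD4 and regulatory T genes, 3 were higher and 0 lower in the class. The part of regulatory T cells in the Il2ra ratio was not tested. Trav11+ T cells held 1 and 14 Il2ra UMIs, a ratio of 9.39 with a counting interval of 2.07 to 575. CD8 T cells held 10 and 48 UMIs, of which a single cKO cell held 17, and without the 5% deepest cells of each library the log2 ratio there was -0.06 in place of 2.04.

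Il15ra, the affinity chain for interleukin 15 (ENSMUSG00000023206, chromosome 2, 11705290 to 11734317, plus strand, next to Il2ra), stood at 8.84 to 12.2 CPM in control Trav11+, CD3+ Cd8b1-negative and CD8 T cells. In CD8 T cells it stood at 11.4 CPM (8.64 to 14.7) in control and 20.5 (16.9 to 24.6) in cKO, from 58 and 117 UMIs, a ratio of 1.79 (1.30 to 2.51) that met the size rule with the cKO level only just above 20 CPM. The CD3+ Cd8b1-negative class stood at 8.84 CPM (7.75 to 10.0) and 12.6 (11.2 to 14.2), a ratio of 1.43 (1.20 to 1.71). Without CD8 T cells that held a UMI of the gut, B cell or myeloid lists, which left 222 and 50 cells, the CD8 log2 ratio was -0.14 in place of 0.84. Of the whole class, 50.4% of control and 74.3% of cKO cells held a UMI of the myeloid list. That list shares Fcer1g and Tyrobp with the NK list, so the setting does not leave out cells of other lineages only. Thinned shares of CD8 T cells with a UMI were 1.84% (0.984 to 3.13) and 3.91% (2.46 to 5.86), intervals that overlap. In NK, DP and Cd4+ Ctla4+ T cells 2 to 12 UMIs were found per library, and a difference was not detectable at this depth.

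Il7r, the private chain for interleukin 7 (ENSMUSG00000003882, chromosome 15, 9505788 to 9530176, minus strand), was highest in control Trav11+ T cells at 823 CPM (773 to 875), followed in control by CD3+ Cd8b1-negative T, Cd4+ Ctla4+ T, CD8 T, DP, NK and B cells, each apart from the next by its interval. In cKO the CD3+ Cd8b1-negative T cells led with 432 CPM (424 to 441), and Trav11+ T cells followed with 390 (357 to 426), which did not differ beyond their intervals. Trav11+ T cells had therefore lost their lead over the wider T class. Their ratio was 0.475 (0.425 to 0.529), a 2.11-fold lower level, from 1009 and 493 UMIs.

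The same direction was seen in the other T classes. CD3+ Cd8b1-negative T cells stood at 638 CPM (629 to 648) in control, a ratio of 0.678 (0.661 to 0.695), just short of the size rule. CD8 T cells stood at 348 CPM (332 to 365) and 174 (163 to 185), a ratio of 0.499 (0.461 to 0.540). Cd4+ Ctla4+ T cells stood at 508 CPM (439 to 584) and 279 (249 to 312), a ratio of 0.550 (0.458 to 0.662). In the CD3+ Cd8b1-negative class the rule was met under 6 of 14 alternatives and not met under 8. Those that met it included cells of at least 3000 UMIs (ratio 0.655) and a median-ratio scaling (0.615). Cells without a UMI of the gut, B cell or myeloid lists met it too (0.592), in 1671 control and 239 cKO cells. In the class, 57.8% of control and 78.1% of cKO cells held a UMI of the myeloid list, which includes genes of the NK list. Alternatives that did not meet the rule included the 5% mitochondrial limit (0.714). Leaving out B and gut marker cells, added after seeing the data, also did not meet it (0.712).

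The share of cells with an Il7r UMI was lower too. After thinning to 1500 UMIs, 61.8% of control Trav11+ T cells (53.9 to 69.3, 102 of 165) and 28.8% of cKO cells (21.6 to 36.8, 42 of 146) held a UMI. Among CD3+ Cd8b1-negative T cells the shares were 52.6% (51.1 to 54.1) and 34.8% (33.1 to 36.6), against 66.0% and 58.3% unthinned. Cells with exactly 1 UMI made up 27.9% and 17.9% of this class, and cells with 4 or more 4.55% and 4.08%. In Trav11+ T cells, by contrast, the share with 4 or more was also lower, at 10.3% and 2.74%. In CD8 T cells the shares with a UMI were 34.0% (30.5 to 37.6) and 16.9% (13.9 to 20.2). In thinned B cells 5.71% and 1.37% held an Il7r UMI, and in gut-gene barcodes 1.16%, well under the T cell shares.

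**Figure D3:**
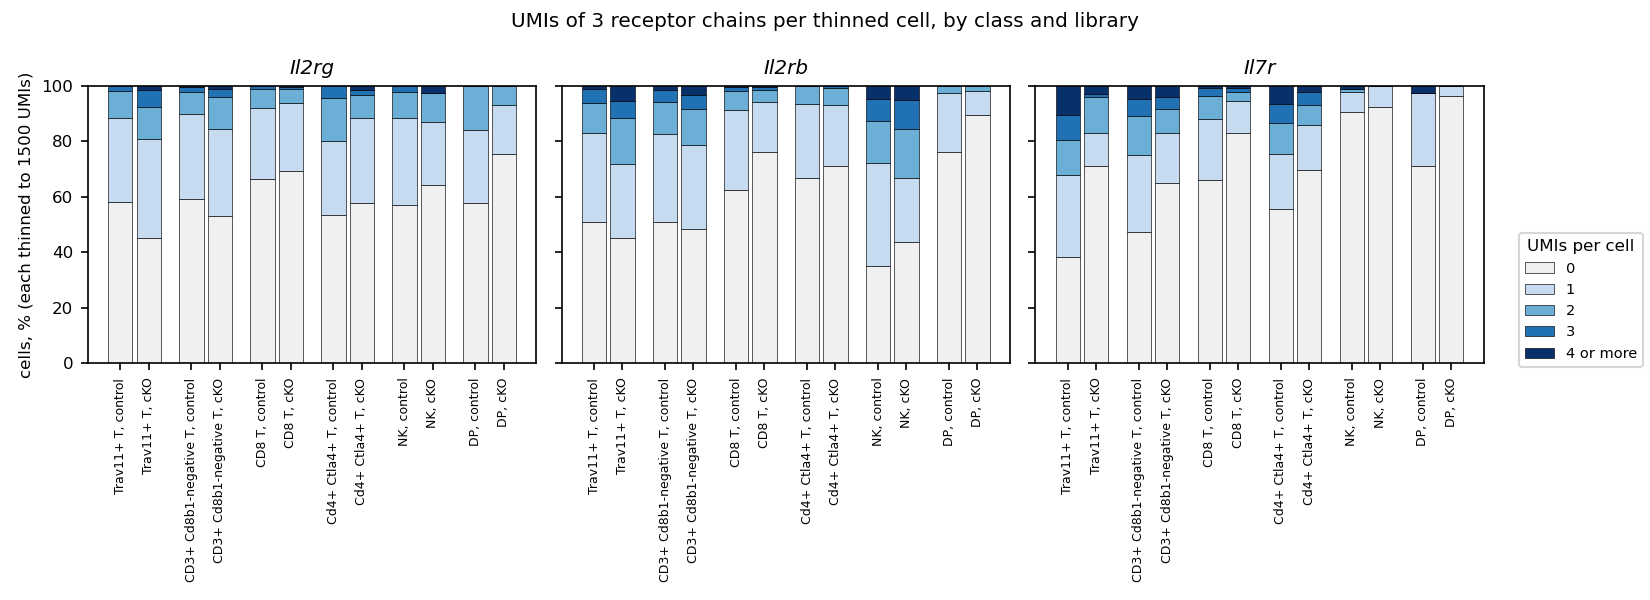
Share of cells (%, stacked to 100) with 0, 1, 2, 3 or 4 or more UMIs of Il2rg, Il2rb and Il7r after thinning each cell to 1500 UMIs, by class and library. The Il7r bars show more cells with 0 UMIs in cKO in each class at this depth, 38.2% and 71.2% in Trav11+ T cells, though for NK cells the order is the opposite at 1000 UMIs, while Il2rb of CD3+ Cd8b1-negative T cells is nearly the same in both libraries.

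Granzyme UMIs differed between the libraries in the CD8 class. Cells with a Gzma or Gzmk UMI, granzyme genes of effector cells, made up 214 of 869 control and 448 of 569 cKO CD8 T cells, a split made after seeing the data. These shares are not thinned, and the class had a median of 3321 UMIs in control and 8984 in cKO. The split therefore also follows depth, and its part in the values below was not tested. Gzma itself, scaled to total UMIs, stood at 266 and 10652 CPM in the class. Among cells with a granzyme UMI Il7r stood at 349 and 114 CPM, a ratio of 0.326 (0.287 to 0.371). Among the 655 and 121 cells without such a UMI it stood at 348 and 450 CPM, a ratio of 1.29 (1.16 to 1.44), so the direction turned. Il2rb turned with it, at 310 and 231 CPM (ratio 0.745, 0.664 to 0.838) in cells with and 324 and 399 CPM (1.23, 1.10 to 1.38) in cells without a granzyme UMI. In control CD8 T cells the 2 subsets thus held like levels of both chains, and in cKO they lay apart. Ccr7, a lymph node homing receptor of resting CD8 cells, stood at 68.6 and 22.9 CPM in the class. Of the 6 listed mature CD8 T genes, Ccr7 among them, 2 were higher and 3 lower past the size rule (summed level 2382 and 3203 CPM). The list as a whole thus gave no single direction.

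NK and DP cells gave Il7r from few UMIs. NK cells stood at 130 CPM (102 to 164) and 70.7 (47.7 to 101), a ratio of 0.549 (0.343 to 0.844), from 71 UMIs in 15 cells and 30 in 13 cells, with 22 of the control UMIs in 1 cell. Weighting NK cells equally turned the direction (log2 1.46). Shares thinned to 1500 UMIs were 9.30% and 7.69%, against 6.12% and 15.2% at 1000 UMIs and 14.3% and 24.5% unthinned, so the share of NK cells with an Il7r UMI gave no steady direction. Listed gut genes were higher in cKO NK cells for 9 of 10 (summed level 7.32 and 1484 CPM), 3.81% and 49.1% of the cells held a gut UMI, and 7 of the 53 cKO cells were gut-gene barcodes. Listed T cell genes were lower for 4 of 10 (1523 and 848 CPM). Without cells of B or gut markers, 103 and 39 cells, the ratio of Il7r was 0.558 (0.335 to 0.881). Only 10 control and 14 cKO NK cells held no Trac, Trbc1 or Trbc2 UMI, and these held 0 and 3 Il7r UMIs. Such counts are too few to show a direction, so the NK ratio could not be checked in this strictest gate. DP cells stood at 236 CPM (171 to 318) and 54.8 (30.7 to 90.5), a ratio of 0.237 (0.120 to 0.426), from 43 and 15 UMIs, with 19 of the control UMIs in 1 cell. With a Cd8b1 UMI asked for as well, the DP levels were 92.3 and 43.8 CPM from 12 and 11 UMIs, and the interval of the ratio (0.190 to 1.18) included 1.

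**Figure D4:**
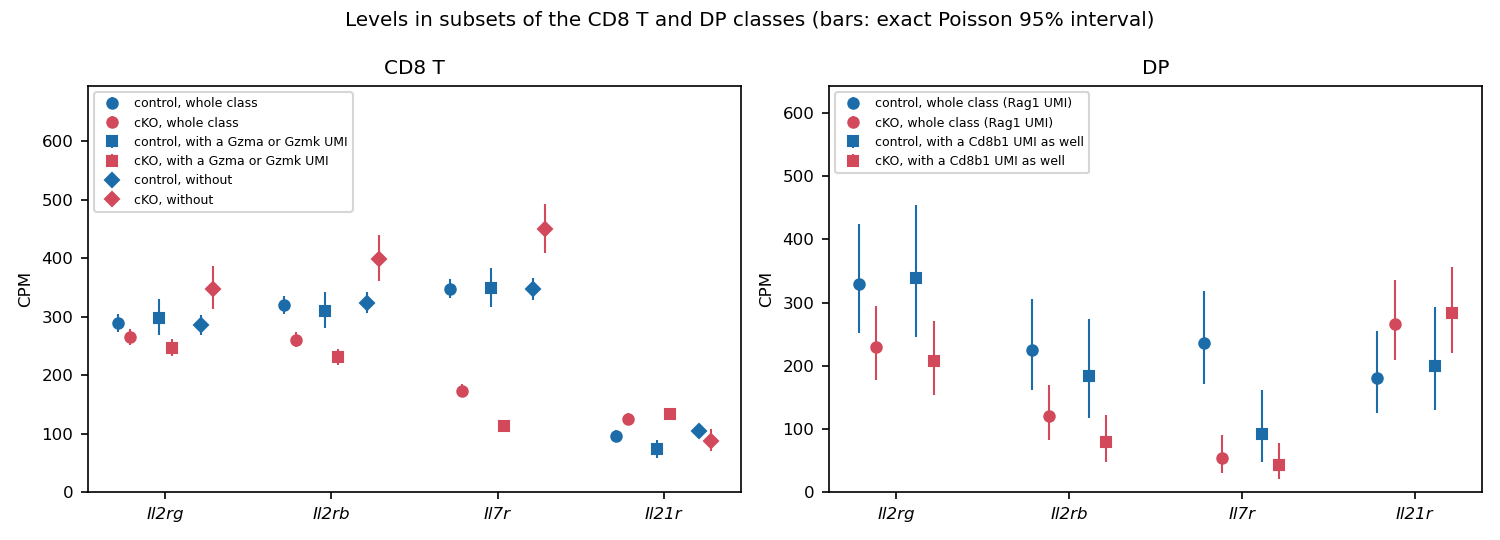
CPM with exact Poisson 95% intervals of 4 chains in the whole CD8 T class and its cells with and without a Gzma or Gzmk UMI, and in the whole DP class and its cells with a Cd8b1 UMI. cKO CD8 T cells without a granzyme UMI lie above control for Il7r (450 against 348 CPM), whereas those with one lie below (114 against 349 CPM).

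Il4ra, the private chain for interleukin 4 (ENSMUSG00000030748, chromosome 7, 125552120 to 125579474, plus strand), was low in all classes. It stood at 20.8 CPM (19.1 to 22.6) and 15.2 (13.6 to 16.9) in CD3+ Cd8b1-negative T cells, a ratio of 0.732 (0.636 to 0.839), and at 31.0 (26.3 to 36.2) and 21.9 (18.2 to 26.1) in CD8 T cells, a ratio of 0.707 (0.554 to 0.899). Trav11+ T cells held 23 and 14 UMIs and Cd4+ Ctla4+ T cells 8 and 31, and the intervals of both ratios included 1. DP cells had the highest levels, at 38.5 CPM (15.5 to 79.3) and 62.2 (36.2 to 99.5), from 7 and 17 UMIs, also with an interval that included 1. The gut-gene barcodes of cKO held 18.9 CPM (14.6 to 24.2) from 64 UMIs, and 3.90% of them had a UMI after thinning. The thinned shares of CD3+ Cd8b1-negative T cells, 3.14% and 2.58%, were not above this, so the cKO share alone is not read as expression.

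Il21r, the private chain for interleukin 21 (ENSMUSG00000030745, chromosome 7, 125603429 to 125633570, plus strand, just beyond Il4ra), was highest in DP cells, at 181 CPM (125 to 255) in control and 267 (209 to 336) in cKO. B cells held 113 and 109 CPM, near the T cell classes, and NK cells were lowest with 22.0 and 9.43 CPM from 12 and 4 UMIs. In control the T classes did not differ from one another beyond their intervals. Its level in CD3+ Cd8b1-negative T cells was 90.6 CPM (87.0 to 94.3) and 73.5 (69.9 to 77.2), a ratio of 0.811 (0.761 to 0.864). In CD8 T cells it stood at 97.3 (88.9 to 106) and 126 (117 to 135), a ratio of 1.29 (1.15 to 1.45), and in Cd4+ Ctla4+ T cells at 70.3 (46.3 to 102) and 118 (99.0 to 141), a ratio of 1.66 (1.11 to 2.65) that met the size rule from 27 and 131 UMIs. The CD8 ratio again followed the granzyme split, at 73.5 and 134 CPM (1.81, 1.47 to 2.28) in cells with and 105 and 88.6 CPM (0.845, 0.661 to 1.06) in cells without such a UMI.

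Within the CD3+ Cd8b1-negative class, Il7r and Il2rb were compared in cells with and without a UMI of marker genes. A split by a UMI also splits by depth, since deeper cells are more often positive, as in control Klrb1c cells with medians of 6190 and 1756 UMIs. Among cells with Klrb1c, the NK1.1 gene of mature iNKT1 cells, Il7r stood at 683 CPM in control and 376 in cKO, and among cells without it at 584 and 441 CPM. Izumo1r, a listed gene of iNKT2 cells, was higher in Cd4+ Ctla4+ T cells (279 and 176 CPM) than in Trav11+ T cells (148 and 50.7 CPM). Cells with Izumo1r held 10.2 and 31.0 CPM of Il2ra, and they are not read as iNKT2 cells. Among cells with Izumo1r, Il7r stood at 630 and 589 CPM, a ratio of 0.936 in 2062 and 351 cells. Among cells without Izumo1r it stood at 646 and 405 CPM, a ratio of 0.627. Izumo1r cells thus held nearly the control level of Il7r in cKO. Il2rb had the lower ratio in Izumo1r cells, at 521 and 390 CPM with Izumo1r (0.749) and 500 and 578 CPM without it (1.16).

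In other splits the chains again differed from each other. Cells with Zbtb16, which encodes the iNKT lineage factor PLZF, held 688 and 532 CPM of Il7r, and cells without it 623 and 395 CPM. Cells with and without Tbx21 had like Il7r ratios, 0.679 and 0.663, while Il2rb stood at 559 and 628 CPM with Tbx21 and 475 and 452 CPM without it. Lgals3, a galectin gene, was found in 1338 of 6236 control and 2369 of 2976 cKO cells. Without it Il2rb stood at 507 and 295 CPM, a ratio of 0.582, and with it at 515 and 607 CPM, while Il7r was lower in cKO on both sides, at 723 and 452 CPM with and 600.0 and 346 CPM without. In cKO the 1487 cells with Fxyd7, a gene that 2 control cells held, had 366 CPM of Il7r and 624 of Il2rb, and the 1489 cells without it 498 and 477 CPM.

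**Figure D5:**
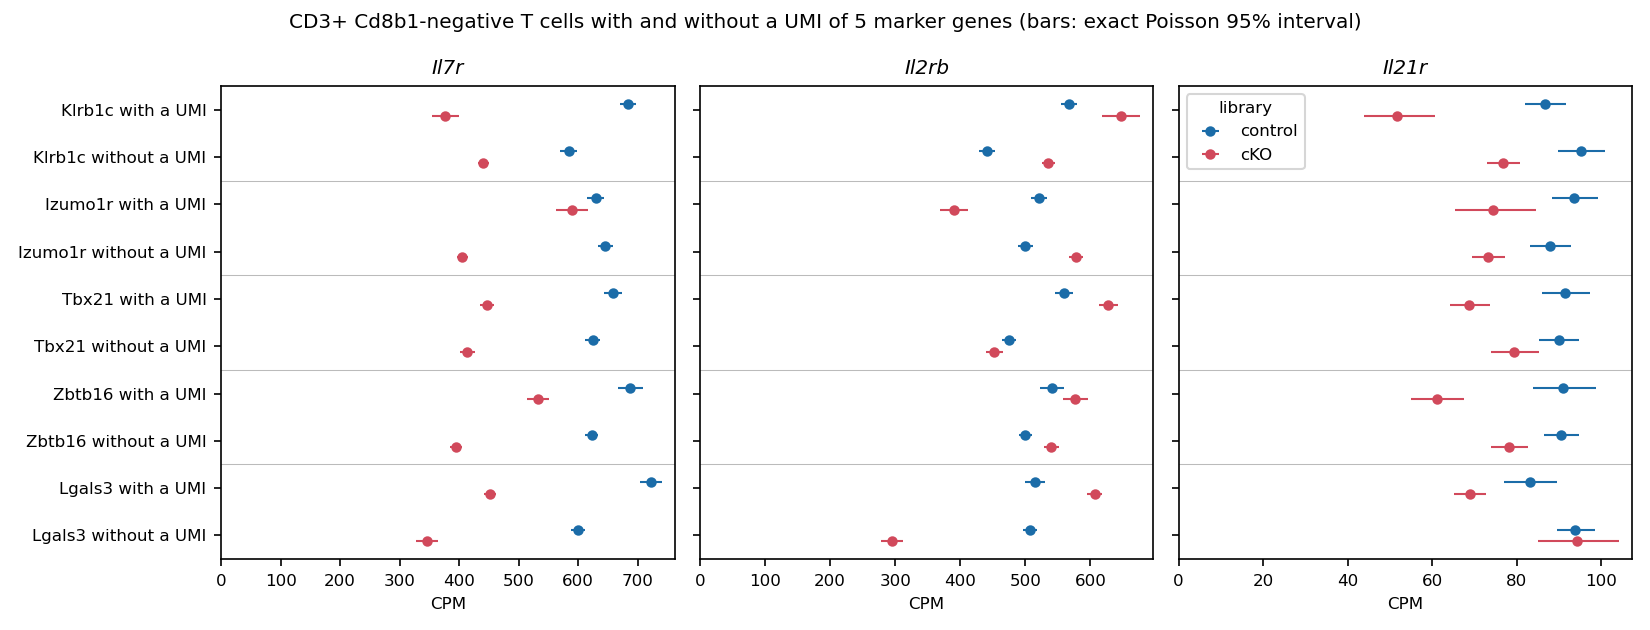
CPM with exact Poisson 95% intervals of Il7r, Il2rb and Il21r in CD3+ Cd8b1-negative T cells with and without a UMI of 5 marker genes, control in blue and cKO in red, 1 library each. Izumo1r cells are the pair with the smallest Il7r gap (630 and 589 CPM), and cells without Lgals3 the pair with the largest Il2rb gap (507 and 295 CPM).

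Chains that pair at the cell surface were also counted in the same cells of this class after thinning. In control, Il2rb was found in 49.2% of cells with and 49.1% of cells without an Il2rg UMI, and in cKO in 55.6% (52.9 to 58.2) and 48.1% (45.6 to 50.7). Il7r was found in 54.9% and 51.1% of control cells with and without Il2rg, and in 38.1% and 32.0% of cKO cells. The share with Il2rb was 48.6% (46.5 to 50.7) and 49.8% (47.6 to 51.9) in control cells with and without Il7r, and 52.2% (49.0 to 55.3) and 51.3% (49.0 to 53.6) in cKO cells, intervals that overlap.

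The wider pathway was read from a list of 50 genes. In CD3+ Cd8b1-negative T cells 30 of them reached 20 CPM, 3 were higher and 3 lower past the size rule, beside 12.7% and 5.08% of all genes, and their median log2 ratio of 0.16 equals that of all genes. Of 8 ligands only Il4 reached 20 CPM, at 40.5 and 66.7 CPM, a ratio of 1.65 (1.52 to 1.78). Of 9 partner and related chains 2 reached it and Crlf2, which pairs with Il7r to bind Tslp, was lower, at 127 and 83.9 CPM, a ratio of 0.663 (0.626 to 0.702). Crlf2 and Il7r, which form that receptor, were both below control in this class.

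Of 9 kinases and STATs 8 reached 20 CPM and 1 was lower: Jak3, the kinase that binds Il2rg, stood at 22.7 and 12.3 CPM, a ratio of 0.544 (0.469 to 0.629). Jak1, which binds the private and beta chains, stood at 375 and 461 CPM (1.23), and Stat5b, which acts downstream of interleukins 2, 7 and 15, at 31.0 and 34.6 CPM. Of 5 adaptors and phosphatases 1 was higher, Ptpn11, at 24.8 and 37.5 CPM (1.51, 1.36 to 1.68). Of 8 inhibitors Socs2, a feedback inhibitor of STAT signalling, was higher, at 26.5 and 167 CPM, a ratio of 6.31 (5.82 to 6.85), while Cish and Socs1 stood at 0.839 and 0.973 of control. Of 11 survival and growth targets Myc was lower, at 54.9 and 33.0 CPM (0.601, 0.549 to 0.657), and Bcl2, the survival gene known downstream of interleukin 7, stood at 300.1 and 304 CPM. Among list genes short of the rule, the highest ratios included Stat3 (1.39), Foxo1 (1.42) and Bcl2l1 (1.41), and the lowest Socs3 (0.794) and Ccnd3 (0.770).

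In the other classes the list gave 3 higher and 5 lower of 30 in Trav11+ T, 6 and 4 of 26 in CD8 T, 5 and 6 of 33 in Cd4+ Ctla4+ T, 2 and 6 of 29 in NK, and 1 and 4 of 28 in DP cells. Of all genes, 16.1% were higher and 7.66% lower in Trav11+ T, and 22.9% and 6.65% in CD8 T cells. The shares were 9.61% and 8.19% in Cd4+ Ctla4+ T, 7.13% and 9.78% in NK, and 6.91% and 4.24% in DP cells. Socs2 was higher in 5 of the 6 classes, at 26.1 and 169 CPM in Trav11+ T cells and 8.82 and 46.4 CPM in CD8 T cells. Bcl2 was lower past the rule in CD8 T cells, at 472 and 263 CPM, in Cd4+ Ctla4+ T cells, at 229 and 105 CPM, and in DP cells, at 187 and 98.7 CPM. In Trav11+ T cells Klf2, a regulator of exit from the thymus, stood at 599 and 254 CPM, a ratio of 0.425.

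Likeness of pattern was measured as Pearson r of log2(CPM + 10) over the 12 values of 6 classes and 2 libraries, among 7735 genes. The 12 values share libraries and the classes overlap, so r is a description. The genes most like Il2rb were Rhoc and Zyx (0.97 each), Rin3 and Myl6 (0.96 each), and those most like Il7r were Il27ra (0.97), itself a cytokine receptor gene, and Prkcq, Ifi213 and Lncpint (0.93 each). Il2rg was most like Gramd1a (0.94), Ms4a6c and Fam53b (0.90 each) and Krt83 (0.89). Il4ra was most like Sit1 (0.95), Pik3ip1, Nsmce1 and Thy1 (0.94 each). Among the chains themselves Il4ra and Il21r gave 0.91, Il2rg and Il7r 0.71, Il2rb and Il2rg 0.58, Il2rb and Il7r 0.32, Il2rb and Il21r -0.82 and Il2rb and Il4ra -0.92. Il2rb was highest in NK cells, where Il21r and Il4ra were lowest, and the latter pair was highest in DP cells. These ends rest on few UMIs: Il4ra held 5 and 2 in NK and 7 and 17 in DP cells, and Il21r 12 and 4 in NK cells. For Il4ra no class was apart from the next by its interval, so r values with Il4ra rest on an order that is not resolved.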

How the data were processed

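Single-cell 3' RNA libraries of YFP+ thymus cells were read as the deposited UMI count matrices, whole-number counts per gene and barcode. The authors made these counts with Cell Ranger 2.1.1 on mm10, per the submitters' processing notes, while the matrix headers name software 3.0.0. The sources used here do not give aligner settings or the annotation. Each deposited barcode held at least 500 UMIs, and 6.76% of control and 28.6% of cKO barcodes were over the mitochondrial limit.

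Counts were summed over the cells of each class and divided by their total, and 0.5 UMIs were added to both sums for a ratio. Shares have exact Clopper-Pearson intervals after thinning to 1500 UMIs, which left out shallower cells (1907 control and 109 cKO CD3+ Cd8b1-negative T cells). A count of 0 allows up to 3 counts. No doublet caller was run, so doublets remain, and leaving out the 5% deepest cells was tried in its place.

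All 7 members were named, with Ets1, the gate genes, the genes of the pathway list past the size rule in CD3+ Cd8b1-negative T cells with those of the 2 highest and 2 lowest ratios of a subgroup, and the 4 genes most like each of Il2rb, Il2rg, Il7r and Il4ra. Other pathway genes, markers and the Gzma or Gzmk split were picked with their values in view. The members, classes and lists were chosen with earlier results of these data known. Coordinates come from GENCODE vM21 on GRCm38, and promoter windows from RefSeq on GRCm38.p6. The size rule was checked on simulated data. Scripts ran on pandas 2.3.3, numpy 2.4.6 and scipy 1.17.1 under Python 3.11.15, with figures from matplotlib 3.10.9. Alternatives covered scaling, cell filters, depth, cell weights, gates, other lineages and the thresholds.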

Additional observations from a re-analysis of the deposited data

Results flagged for a closer look

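For 3 chains the cKO over control ratio lay on opposite sides of 1 in different classes, with intervals that exclude 1, and the differences between classes were not tested. Il2rb stood at 1.16 in Trav11+ T cells and 0.537 in DP cells. Il2rg stood at 1.23 in Trav11+ T cells and 0.686 in NK cells. Il21r stood at 1.66 in Cd4+ Ctla4+ T cells and 0.811 in CD3+ Cd8b1-negative T cells. DP and NK cells are few, Ets1 was not lower in DP cells, and listed marker genes of the Cd4+ Ctla4+ gate differed between the libraries.

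Receptor chains also gave UMIs in the 1567 cKO gut-gene barcodes, above the 0.888 CPM that 3 counts would give there. Il4ra stood at 18.9 CPM, above its 15.2 CPM in cKO CD3+ Cd8b1-negative T cells. Il7r stood at 9.18 CPM, Il2rg at 5.92, Il15ra at 4.74, Il21r at 3.55 and Il2rb at 3.26 CPM, each below its level in those T cells. Of these barcodes 7 also fell in the NK gate, and the others were in none of the 6 classes.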

How the results depend on the processing

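The 42 chain ratios were recomputed under 567 alternatives in all. The direction held in 533 and turned in 34, and the side of the size rule held in 502. Of the turns, 4 were in ratios that met the size rule: Il15ra in CD8 T cells without other lineages (log2 -0.14), Il7r in NK cells weighted equally (1.46) or without a Trac or Trbc UMI (1.97), and Il7r in CD8 T cells without a Gzma or Gzmk UMI (0.37). The setting without other lineages also left out cells by genes of the NK list. NK cells without a Trac or Trbc UMI held too few Il7r UMIs to show a direction. Il7r stayed lower and past the rule in Trav11+ T cells under each alternative run, with log2 ratios from -3.63 (29 and 14 cells without other lineages) to -0.89 (5% mitochondrial limit). The settings by granzyme, Foxp3, Ctla4 or Cd4, Trac or Trbc, Cd8b1, B and gut marker UMIs and by shared barcodes were chosen after seeing the data.

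Counts of chains past the rule, higher and lower, changed as follows, and the cause was not tested. With a fold of 2, CD8 T had 0 higher, Cd4+ Ctla4+ T 1 higher and 0 lower, NK 0 lower and DP 1 lower. With 10 CPM or no minimum, Il2ra made 1 higher in Trav11+ T and in CD3+ Cd8b1-negative T, and 2 were higher in CD8 T with no minimum. In CD3+ Cd8b1-negative T, 2 were lower (Il7r and Il4ra) under both other scalings and without Foxp3, Ctla4 or Cd4 cells, and 1 was lower with 5% mitochondrial UMIs (Il4ra), 1000 genes, 3000 UMIs or without other lineages (Il7r). Il2ra was the 1 higher there without mitochondrial and ribosomal genes, with equal weights, without other lineages and without B and gut markers. In CD8 T, 0 were higher under both scalings, thinned, with Rag1 cells kept and without granzyme cells, where 0 were also lower, and 2 were lower with median-ratio scaling, 1000 genes, 3000 UMIs or gates at 2 UMIs, and 3 without mitochondrial and ribosomal genes. In Cd4+ Ctla4+ T, 1 was lower with 5% mitochondrial UMIs, 0 were higher and 0 lower when thinned, 0 lower with equal weights, and 1 higher and 0 lower without the 5% deepest. In NK, 2 were lower with 1000 genes or 3000 UMIs, 3 with gates at 2 UMIs, and 0 when thinned, without the 5% deepest or without Trac and Trbc, and 2 were higher with equal weights. In DP, 1 was higher with 5% mitochondrial UMIs, 1000 genes or equal weights, and 1 lower with 3000 UMIs. In Trav11+ T, Il21r was the 1 higher without other lineages.

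Over all genes, median-ratio scaling turned the split of higher and lower from 993 and 472 to 659 and 676 in Trav11+ T, from 758 and 303 to 467 and 444 in CD3+ Cd8b1-negative T, from 1349 and 391 to 635 and 664 in CD8 T, and from 481 and 295 to 312 and 427 in DP cells. Without mitochondrial and ribosomal genes in the total the split was 674 and 888 in Trav11+ T and 582 and 605 in CD3+ Cd8b1-negative T cells. In CD8 T cells it was 707 and 998 of 7105 genes, beside 1349 and 391 of 5883. Thinning gave 135 and 185 in Cd4+ Ctla4+ T (610 and 520 before) and 183 and 135 in NK cells (450 and 617 before). Equal weights, with no interval in the rule, gave 1941 and 1591 in NK cells. Chain counts above are to be read against these shifts. Cd4+ Ctla4+ T without other lineages or with gates at 2 UMIs, and NK and DP without other lineages, were not run because fewer than 10 cells remained in a library. No paired analysis was possible because each genotype has 1 library. With 48 to 177 cells a library, Trav11+ T, Cd4+ Ctla4+ T, NK and DP cells limit what can be seen of the low chains Il2ra, Il15ra and Il4ra. In likeness with a pseudocount of 1, Pde3b took the fourth place for Il7r (0.93).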

Other observations

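Some genes of the pathway list were under 20 CPM and so outside the size rule, with intervals that lay apart in CD3+ Cd8b1-negative T cells. Il9r, the private chain for interleukin 9, stood at 1.24 and 12 CPM in control and cKO, a ratio of 9.58 (6.75 to 14.4), and reached 23.5 CPM in cKO Cd4+ Ctla4+ T cells, where it was not found among control UMIs. Il13, a cytokine that signals through Il4ra, stood at 1.01 and 8.67 CPM, a ratio of 8.44 (5.71 to 13.4). Il15 stood at 0.749 and 3.01 CPM.

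Il4ra, Il21r and Nsmce1, a gene among the 4 most like Il4ra, lie side by side on chromosome 7 of GRCm38: Nsmce1 at 125467640 to 125491596 on the minus strand, then Il4ra and Il21r on the plus strand. With a pseudocount of 1 the genes most like Il4ra were Nsmce1, Plscr3, Thy1 and Actn1, and Nsmce1 ranked first with r 0.96.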
